A study of Mus musculus with 288 samples.

Results

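Acute-phase proteins were described by 10 genes, Saa1, Saa2, Saa3, Orm1, Orm2, Hp, Hpx, Lcn2, Fgb and Apcs, taken by symbol from the 35904 genes measured in 6 tissues of the mouse. RNA-seq covered the cerebellum, heart, kidney, liver, lung and muscle of male wild-type C57BL/6J mice kept for 7 days in normoxia or in intermittent hypoxia (IH), in which oxygen was lowered in cycles during the light phase when mice rest. All mice then went into constant darkness in normoxia, and the tissues were taken on the second day of it, at 8 time points 3 hours apart, so neither group was in hypoxia at collection. Each tissue had 24 libraries from normoxia and 24 from IH, 3 per time point, which makes 288 in all. The labels give whole tissues of unstated parts, and they do not say that a replicate number marks shared mice, so p-values measure only the spread between these libraries.

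Acute-phase proteins are plasma proteins whose synthesis in hepatocytes changes within hours of injury, infection or other stress, mainly through IL-6, which acts on STAT3, and through IL-1 and TNF, which act on NF-kB and C/EBP factors. Hp and Hpx bind free haemoglobin and haem, Fgb is a chain of the clotting protein fibrinogen, and Apcs is the pentraxin serum amyloid P. Saa1 and Saa2 encode serum amyloid A carried on high-density lipoprotein, Saa3 a form made largely outside the liver, Orm1 and Orm2 the drug-binding orosomucoids, and Lcn2 an iron-trapping lipocalin of neutrophils and epithelia.

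Of these genes, 2 families lie side by side, and their transcripts share sequence that limits how reads can be divided among them. In GRCm38, Saa1 (chr7:46740497-46742980, minus strand) and Saa2 (chr7:46751790-46754313, plus strand) are 8809 bases apart, and 24796 bases separate Saa3 from Saa1. Orm1 (chr4:63344560-63348163) and Orm2 (chr4:63362449-63365878), both on the plus strand, are 14285 bases apart. Of all 31-base words in Saa1 transcripts, 46.0% also occur in Saa2, against 1.12% in Saa3, and 27.5% of those in Orm1 occur in Orm2. The split of TPM between Saa1 and Saa2, and between Orm1 and Orm2, is therefore less certain than their sums.

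The promoters of Saa1, Saa2 and Fgb are shown because Saa1 and Saa2 varied together in the liver and because Fgb was the member that changed there. Each line gives the 250 bases before the RefSeq transcription start in GRCm38.p6, 5′ to 3′ on the gene's strand, with matches to searched motifs in capitals. They span chr7:46742981-46743230 on the minus strand, chr7:46751583-46751832 on the plus strand and chr3:83049864-83050113 on the minus strand.
Saa1: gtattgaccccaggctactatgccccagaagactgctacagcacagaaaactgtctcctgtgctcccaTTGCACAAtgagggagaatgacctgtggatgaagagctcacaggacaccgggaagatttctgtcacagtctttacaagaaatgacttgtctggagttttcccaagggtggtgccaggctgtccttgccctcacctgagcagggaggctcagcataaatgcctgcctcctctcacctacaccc
Saa2: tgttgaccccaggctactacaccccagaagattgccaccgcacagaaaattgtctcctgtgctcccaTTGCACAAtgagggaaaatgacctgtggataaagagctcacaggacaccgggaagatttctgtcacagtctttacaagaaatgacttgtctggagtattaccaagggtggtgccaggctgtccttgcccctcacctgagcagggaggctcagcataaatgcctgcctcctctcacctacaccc
Fgb: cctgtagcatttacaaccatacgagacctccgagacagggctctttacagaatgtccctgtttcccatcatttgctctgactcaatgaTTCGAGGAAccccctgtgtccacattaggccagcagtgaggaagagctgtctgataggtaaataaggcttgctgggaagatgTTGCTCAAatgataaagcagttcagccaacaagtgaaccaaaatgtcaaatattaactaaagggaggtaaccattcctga
The motifs searched on both strands were TTCNNNGAA, bound by STAT3, GGGANTTTC, bound by NF-kB, and TTGCNNAA, bound by C/EBP factors. The Saa1 and Saa2 windows were identical in 94.8% of aligned columns, and each held a C/EBP match, at -182 to -175 and at -183 to -176 from the start. The Fgb window held a STAT3 match at -162 to -154 and a C/EBP match at -80 to -73. Promoters of 8 of the 10 members were in the RefSeq table, without Hp and Orm1. C/EBP matches stood in 7 of these 8, against 9.56% of 32851 promoters of the same length. STAT3 matches stood in 2, Fgb and Apcs, against 7.02% of all, and NF-kB matches in 0, against 0.941%. A match is a stretch of letters and was not tested for binding.

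Transcript levels were highest in the liver for 9 of the 10 members in normoxia, and Lcn2 was highest in the lung. TPM is a transcript's share of a library's total, scaled to a fixed sum, and is corrected for transcript length, so levels can be set beside each other across genes. The members together took 0.707% of liver transcripts in normoxia, a sum of 7058 TPM, and 0.561% after IH, a sum of 5597 TPM. Hpx (2459 ± 850 TPM, SD, n = 24), Hp (2048 ± 330 TPM), Orm1 (1374 ± 211 TPM) and Fgb (928 ± 155 TPM) made up most of that sum. Saa1, at 107 ± 66.8 TPM, and Apcs, at 69.4 ± 14.3 TPM, were an order of magnitude lower. Saa2 (36.6 TPM), Orm2 (19.6 TPM), Saa3 (12.5 TPM) and Lcn2 (3.48 TPM) completed the list.

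Outside the liver the members differed in how far their levels dropped. Hp was 1124 ± 205 TPM in the lung, 302 ± 134 TPM in muscle, 34.8 ± 34.9 TPM in the heart, 24.6 ± 7.90 TPM in the kidney and 7.02 ± 6.52 TPM in the cerebellum. Each of these steps was larger than the spread except that from heart to kidney (adjusted p = 0.887, permutation test). Orm1 was 56.1 TPM in muscle, 7.40 TPM in the kidney, 6.15 TPM in the lung, 4.14 TPM in the heart and 0.905 TPM in the cerebellum, and kidney and lung did not differ (adjusted p = 0.0842, permutation test). Lcn2 was 121.5 ± 25.4 TPM in the lung, 9.02 ± 15.1 TPM in muscle and from 3.48 TPM in the liver to 2.37 TPM in the cerebellum, and no neighbours below the lung differed. Fgb, Hpx, Apcs, Saa1, Saa2 and Orm2 were liver transcripts, with means of at most 1.49 TPM in any other tissue in normoxia, and Saa3 was 5.16 TPM in the lung and at most 1.65 TPM in the other 4. Apcs was listed at 0 in all 24 lung libraries of normoxia. Of 50 comparisons of neighbouring tissues, 30 differed (2-sided permutation test with 100000 draws on log2 values, adjusted over the 50, with 2.78e-05 as the smallest adjusted p it can give). Scaling over all 6 tissues turned the order of 2 close pairs, Orm1 in lung and heart and Orm2 in muscle and lung.

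**Figure D1:**
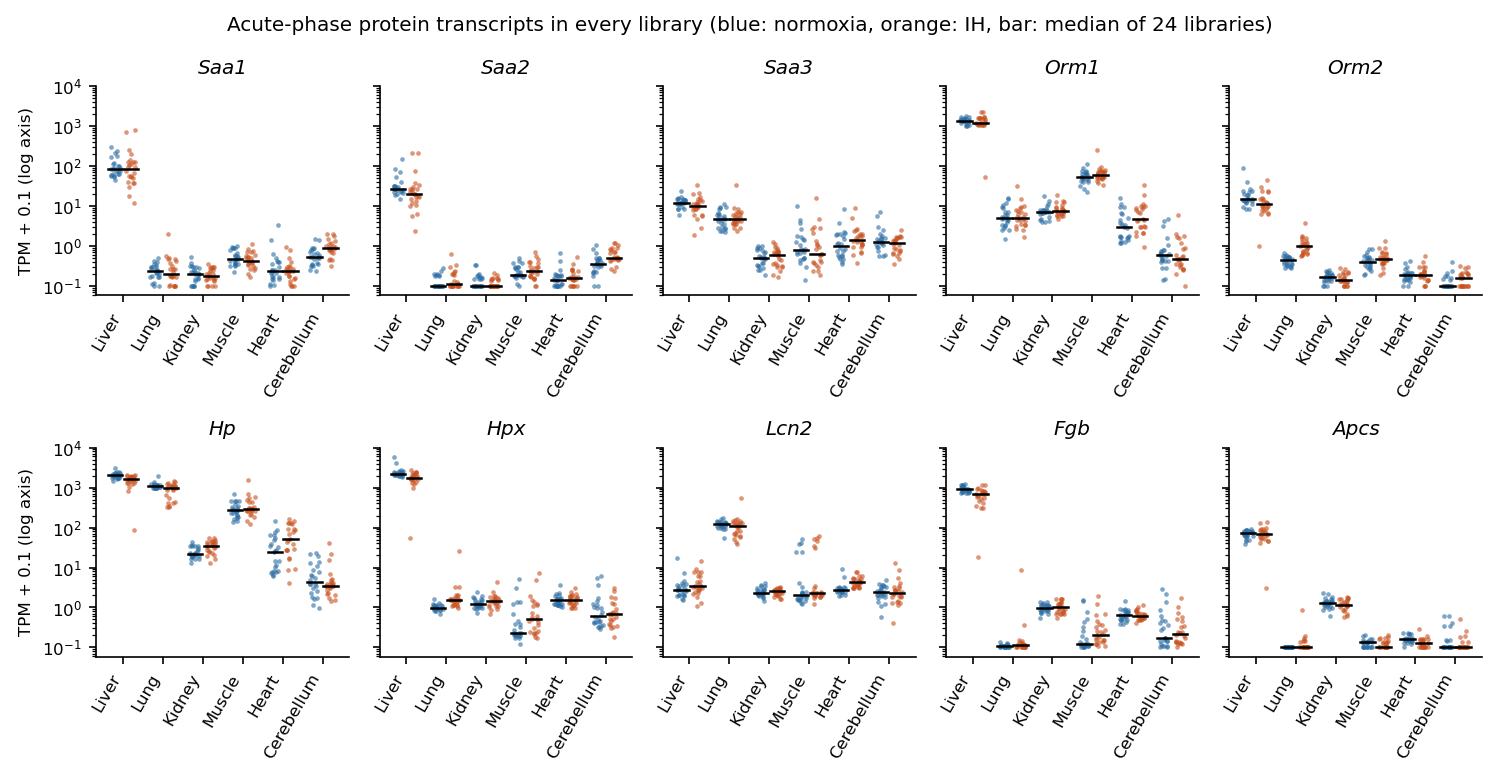
TPM of each member (plus 0.1, log axis) in all 288 libraries, by tissue, with normoxia in blue, IH in orange and a bar at the median of 24 libraries. The liver column stands highest for 9 members and the lung column for Lcn2, and the IH points of the liver include 1 library far below the rest for most members.

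A few libraries stood apart from their labels, and each touches results below. The IH liver library of replicate 2 at 13:30 had hepatocyte markers (12 genes) summing to 2584 TPM, against 68567 to 134699 TPM in the other 47, and heart muscle markers summing to 11023 TPM, against at most 101 TPM. Members there were between 2.23% (Fgb) and 40.0% (Lcn2) of the median of the other liver libraries. The IH lung library of replicate 1 at 22:30 had hepatocyte markers at 1398 TPM, against at most 96.4 TPM in the others, with Hpx at 26.5 TPM and Fgb at 8.76 TPM, against at most 3.22 and 0.256 TPM. The IH cerebellum library of replicate 3 at 1:30 had heart muscle markers at 12827 TPM and neuron markers at 578 TPM, against at least 1828 TPM in the others. Kidney markers were also higher in the liver after IH, with medians of 5.37 TPM in normoxia and 97.1 TPM after IH, and all 6 of the list that were tested rose. Lung libraries had 22694 ± 737 genes above 0 in normoxia and 25455 ± 1529 after IH, and heart libraries 25124 ± 1719 and 21447 ± 688.

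The comparison of mean 24-hour expression asked which members differed after IH, over all time points of a tissue. Only 3 of 32 tested pairs of member and tissue changed, Fgb lower in the liver, Hp lower in the lung and Hp higher in the heart. A change was an adjusted p of at most 0.05 (limma, over all genes tested in that tissue) together with a 1.5-fold difference, on the log2 scale of TPM scaled per library plus 0.5, which understates the change of low genes. A further 28 pairs had a mean under 1 TPM and were not tested. In the liver, 1 of 10 tested members changed, where 3.65% of all genes did. The lung had 1 of 5, which was lower, as were 4.39% of all genes (677 lower and 1402 higher), and the heart 1 of 5, with 2.95%. The kidney had 0 of 5, with 0.783% of all genes, muscle 0 of 4, with 0.374%, and the cerebellum 0 of 3, with 2.64% (limma). At an unadjusted p under 0.05 there were 3 members in the liver, 3 in the lung, 3 in the heart, 1 in the kidney and 0 in muscle and cerebellum. The share of all genes at that unadjusted p is not given, so these counts cannot be set against it. With at most 1 member called per tissue, the shares called cannot be told apart from those of all genes. On TPM as deposited the median log2 change of all genes was 0.21 in the lung, -0.12 in the liver and 0.15 in the heart, and scaling made these -0.08, -0.01 and 0.04. The median over tested members after scaling was -0.31 in the liver, -0.23 in the lung, 0.18 in the kidney and 0.43 in the heart.

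**Figure D2:**
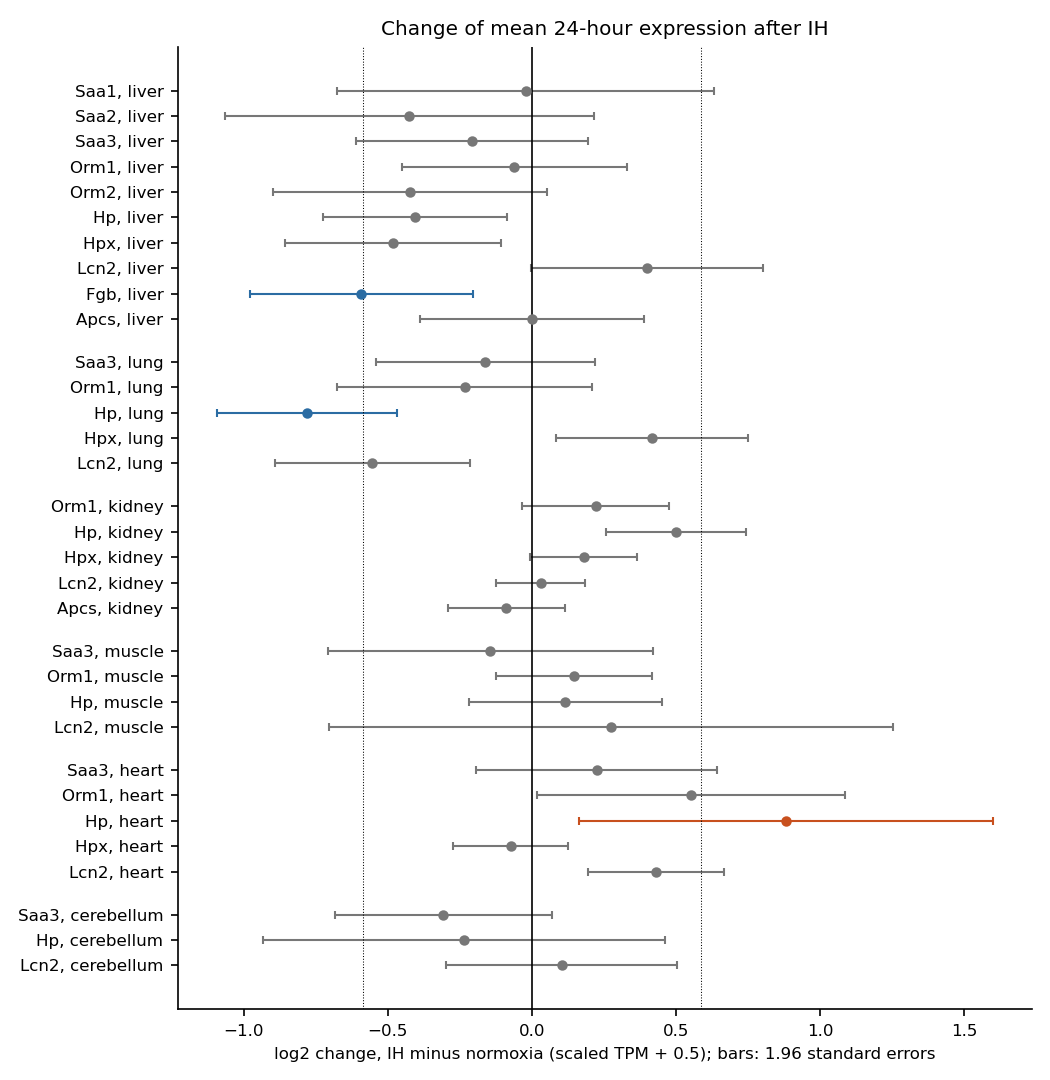
Log2 change of mean 24-hour expression (IH minus normoxia, TPM scaled plus 0.5) of the 32 tested pairs of member and tissue, with bars of 1.96 standard errors and dotted lines at 1.5-fold. Blue marks the 2 pairs that were lower, Fgb in the liver and Hp in the lung, and orange the pair that was higher, Hp in the heart, while grey pairs did not pass.

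Hp, which encodes haptoglobin, the plasma scavenger of free haemoglobin, was the member with most movement between tissues. In the lung it ranged from 960 TPM (median 1077) to 1961 TPM in normoxia and from 322 TPM (median 997) to 1433 TPM after IH. The groups overlapped, with 11 of 24 IH libraries below every normoxia library and the mean lower at 8 of 8 time points. Hp fell by 0.78 on the log2 scale in the lung (SE 0.159, adjusted p = 3.03e-05, limma), from a mean of 1124 ± 205 to 884 ± 357 TPM (SD, n = 24 each). The difference sat in replicates 1 and 2, where the IH means were 738 and 769 TPM, while replicate 3 had 1143 TPM and the normoxia replicates 1070.0 to 1171 TPM. On TPM as deposited the change was -0.48 and under 1.5-fold, with quantile normalization -0.31 (adjusted p = 0.0725, limma), and with genes detected per library as a covariate it reversed to 0.09 (adjusted p = 0.728, limma). Leaving out any replicate number or time point kept the call.

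Lung epithelium markers moved with Hp in the lung. Their sum ranged from 141300 TPM (median 176600) to 272600 TPM in normoxia and from 38110 TPM (median 152900) to 210500 TPM after IH, and 9 of 12 were lower after IH. Over the 48 lung libraries Hp and this sum had a Pearson r of 0.965 and a Spearman rho of 0.930 after subtracting the treatment mean (permutation p = 1e-05 for both, the smallest possible, adjusted 0.000103 and 0.000145 over 320 relations). Without the 2 libraries farthest from the median r was 0.957, within normoxia 0.942, within IH 0.972, and within replicates 1, 2 and 3 it was 0.974, 0.976 and 0.859. The tissue is bulk, so fewer cells of a type and less RNA per cell cannot be told apart, and the part of the epithelium in the Hp difference was not tested.

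In the heart Hp was far lower and far more variable. It ranged from 5.98 TPM (median 24.9) to 149 TPM in normoxia and from 4.02 TPM (median 50.8) to 167 TPM after IH, so the groups overlapped almost wholly. Hp rose by 0.88 on the log2 scale (SE 0.367, adjusted p = 0.0457, limma), from 34.8 ± 34.9 to 66.2 ± 49.4 TPM (SD, n = 24 each), and the mean was higher at 7 of 8 time points. The call rested on single replicates and times. Without replicate 1 the change was 0.62 (adjusted p = 0.316, limma), without replicate 2 it was 0.86 (adjusted p = 0.117, limma), and without replicate 3 it was 1.17 and kept the call (adjusted p = 0.0337, limma). Within replicate 3 alone Hp was at 0.32 and did not pass, and Lcn2 was the member called in its place. The Hp call was kept without 4:30 or 7:30 and lost without any of the other 6 time points. In 25 alternatives the change ran from 0.32 to 1.42, with adjusted p from 0.00732 to 0.71 (limma), and 11 kept the call. Adipocyte markers ranged from 978 TPM (median 1704) to 4330 TPM in the normoxia hearts and from 855 TPM (median 2048) to 4519 TPM after IH, with 0 of 12 changed and 11 of 12 higher, and their sum followed Hp with r = 0.776 and rho = 0.785 (permutation p = 1e-05 for both, n = 48), r = 0.757 without the 2 farthest libraries, 0.694 within normoxia and 0.848 within IH. Their part in the Hp difference was not tested.

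In the kidney Hp averaged 24.6 ± 7.90 TPM (SD, n = 24) in normoxia, and after IH 34.5 ± 11.6 TPM. The lowest, median and highest libraries were 12.8, 21.7 and 42.3 TPM in normoxia and 13.0, 35.3 and 55.0 TPM after IH, with 8 of 24 IH libraries above every normoxia library. The log2 change of 0.50 (SE 0.124, adjusted p = 0.00311, limma) passed the p but not the 1.5-fold limit, and the mean was higher at 8 of 8 time points. Without replicate 1 the change was 0.61 (adjusted p = 0.00248, limma) and passed both. Adipocyte markers followed Hp in the kidney too (r = 0.764, rho = 0.775, permutation p = 1e-05 for both, n = 48), with medians of 935 TPM in normoxia and 1045 TPM after IH.

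In the liver, the main source of plasma haptoglobin, Hp ranged from 1495 TPM (median 2024) to 3068 TPM in normoxia and from 88.8 TPM (median 1612) to 2120 TPM after IH. The mean was lower at 8 of 8 time points and 9 of 24 IH libraries lay below every normoxia library, but the log2 change of -0.40 (SE 0.163, adjusted p = 0.0622, limma) did not pass. Without the IH library of replicate 2 at 13:30 it was -0.27 (adjusted p = 0.0281, limma), under 1.5-fold, and without replicate 3 it was -0.64 and passed (adjusted p = 0.0218, limma). In muscle Hp was 302 and 378 TPM in normoxia and IH (log2 change 0.12, adjusted p = 0.743, limma). In the cerebellum it was 7.02 and 6.13 TPM, with a log2 change of -0.24 (adjusted p = 0.692, limma) that was -0.42 without the IH library of replicate 3 at 1:30 and -0.08 without the 11 libraries in which heart muscle markers passed 2000 TPM. Hp followed those heart muscle markers across cerebellum libraries with r = 0.944 and rho = 0.949 (permutation p = 1e-05 for both, n = 48; r = 0.929 without the 2 farthest, 0.966 within normoxia and 0.930 within IH).

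**Figure D3:**
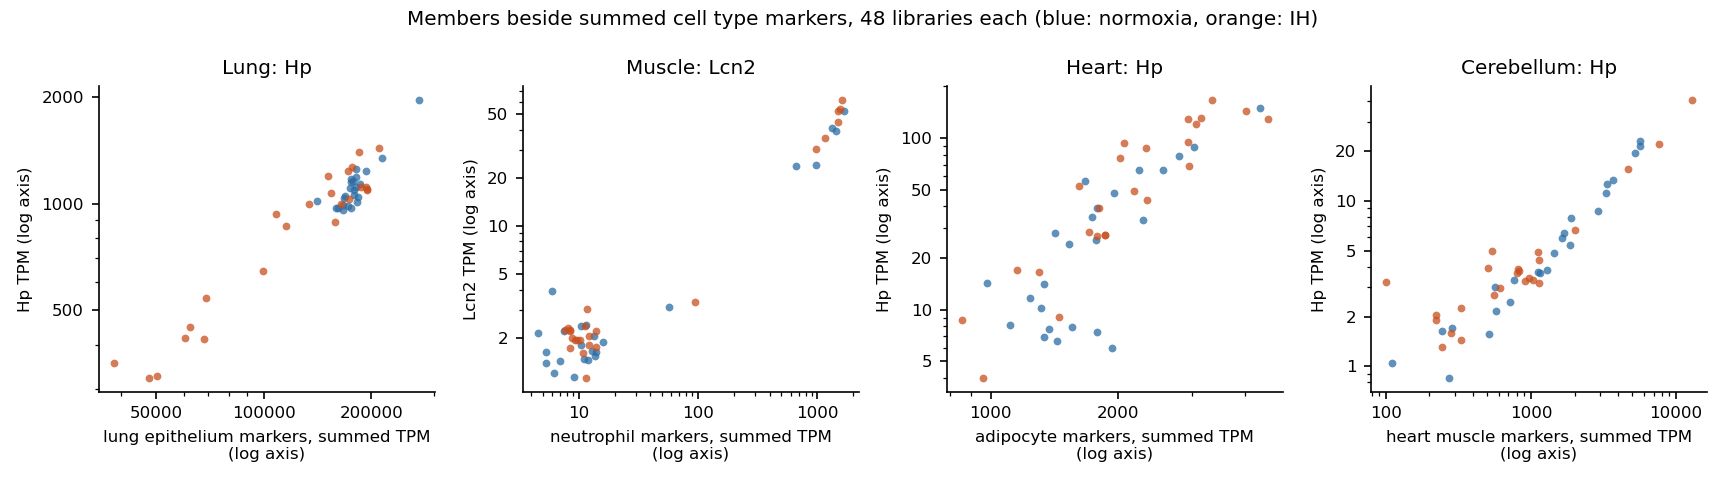
Member TPM against the summed TPM of a 12-gene cell type marker list in 48 libraries per panel, normoxia in blue and IH in orange, all axes logarithmic. Hp rises with lung epithelium markers in the lung, with adipocyte markers in the heart and with heart muscle markers in the cerebellum, and muscle Lcn2 splits into 11 libraries with neutrophil markers over 100 TPM and 37 below.

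Hpx encodes hemopexin, which carries free haem to the liver. In the liver it ranged from 1830.3 TPM (median 2227) to 5820 TPM in normoxia and from 55.6 TPM (median 1750.2) to 2824 TPM after IH, and 13 of 24 IH libraries lay below every normoxia library. The log2 change of -0.48 (SE 0.191, adjusted p = 0.0575, limma) did not pass, although the mean was lower at 8 of 8 time points. On TPM as deposited Hpx did pass, at -0.61 (adjusted p = 0.0449, limma), and without the IH library of replicate 2 at 13:30 it was -0.31 (adjusted p = 0.0104, limma), under 1.5-fold. In the lung, where Hpx is scarce, it had 0.604, 0.887 and 1.53 TPM as lowest, median and highest in normoxia and 0.878, 1.48 and 26.5 TPM after IH. The mean was higher at 8 of 8 time points and the log2 change was 0.42 (SE 0.170, adjusted p = 0.0269, limma), under 1.5-fold, and 0.26 without the library of replicate 1 at 22:30 that held hepatocyte transcripts. With means of 0.925 TPM in normoxia and 2.58 TPM after IH, lung Hpx reached the filter of 1 TPM only through the IH group. Its test is therefore no separate support for a rise. Hpx in the lung did pass, as higher, on TPM as deposited (0.64, adjusted p = 0.0012, limma) and without replicate 3 (0.61, adjusted p = 0.0241, limma). Of all lung genes, 2908 of 15426 were higher on TPM as deposited and 1971 of 15590 without replicate 3. Hpx in the kidney (0.18, adjusted p = 0.179, limma) and heart (-0.07, adjusted p = 0.576, limma) did not pass.

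Fgb, the fibrinogen beta chain, was the only member that changed in the liver. It ranged from 717 TPM (median 910.0) to 1264 TPM in normoxia and from 18.4 TPM (median 684) to 1191 TPM after IH, and 14 of 24 IH libraries lay below every normoxia library. Fgb fell by 0.59 on the log2 scale (SE 0.197, adjusted p = 0.0238, limma), from 928 ± 155 to 660.0 ± 276 TPM (SD, n = 24 each), with a lower mean at 8 of 8 time points. As for Hp in the lung, replicates 1 and 2 carried the difference. Their IH means were 499 and 554 TPM, while replicate 3 had 926 TPM and the normoxia replicates 913 to 958 TPM. For Fgb in the liver within replicate 1 alone the change was -0.82, within replicate 2 it was -1.02 (adjusted p = 0.173, limma), and within replicate 3 it was 0.04 (adjusted p = 0.973, limma), which reversed it. Without replicate 1 the change was -0.48 (adjusted p = 0.391, limma), without replicate 2 it was -0.38 (adjusted p = 0.122, limma), and without replicate 3 it was -0.92 (adjusted p = 0.00631, limma). Without the IH library of replicate 2 at 13:30 it was -0.42 (adjusted p = 0.0018, limma), under 1.5-fold, and the call was also lost without the 1:30, 13:30 or 16:30 time point. Of 26 alternatives, 16 kept the call, with adjusted p from 0.000119 to 0.973 (limma). Hepatocyte markers had sums of 97250 TPM (median 106600) to 134700 TPM in normoxia and 2584 TPM (median 90740) to 108700 TPM after IH, and 3 of 12 were lower, which is a measured difference whose part in the Fgb result was not tested.

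Apcs, whose product coats amyloid and debris in plasma, stayed near 70 TPM in the liver. Its lowest, median and highest libraries were 39.2, 71.5 and 89.3 TPM in normoxia and 3.01, 68.3 and 135 TPM after IH. The log2 change was 0.00 (SE 0.198, adjusted p = 0.998, limma), with a 95% interval from -0.39 to 0.39. The spread after IH was wider on both sides, with 5 libraries above and 1 below every normoxia library. In the kidney, the only other tissue in which Apcs was tested, the means were 1.24 and 1.11 TPM (log2 change -0.09, adjusted p = 0.582, limma). In the lung after IH it was listed at 0 in 17 of 24 libraries.

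Saa1, the most inducible serum amyloid A of the mouse liver along with Saa2, varied between libraries more than any difference between groups. In the liver Saa1 ranged from 44.2 TPM (median 84.9) to 302 TPM in normoxia and from 11.8 TPM (median 82.9) to 791 TPM after IH. Normoxia averaged 107 ± 66.8 TPM (SD, n = 24) and IH 143 ± 198 TPM, and the log2 change was -0.02 (SE 0.333, adjusted p = 0.971, limma), with a 95% interval from -0.67 to 0.63. The 2 highest libraries, 791 and 727 TPM, were both replicate 1 of IH, at 13:30 and 16:30, and replicates 2 and 3 at those times had 11.8 to 108 TPM. In normoxia the 3 libraries at 7:30 had 216, 242 and 183 TPM, and of the other 21 only the library of replicate 3 at 10:30, at 302 TPM, was above them all. Saa2 ranged from 15.2 TPM (median 26.5) to 149 TPM in normoxia and from 2.24 TPM (median 20.0) to 218 TPM after IH, with a log2 change of -0.42 (adjusted p = 0.354, limma). Taken as a sum, which does not depend on how reads are divided, Saa1 and Saa2 had 144 ± 92.9 and 180.2 ± 254 TPM (log2 change -0.12, adjusted p = 0.82, limma).

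Outside the liver the serum amyloid A genes were low. In the cerebellum, where neither passed the filter alone, the sum of Saa1 and Saa2 was 0.792 TPM in normoxia and 1.42 TPM after IH, a log2 change of 0.58 (SE 0.157, adjusted p = 0.00839, limma) just under 1.5-fold, and Saa1 was higher at 8 of 8 time points (0.503 and 0.888 TPM). The sum reached the filter of 1 TPM only through the IH group, so its test is no separate support for a rise. Saa3, the form known from macrophages and fat, had 12.5 and 11.2 TPM in the liver (log2 change -0.21, adjusted p = 0.482, limma). In the lung its medians were 4.66 and 4.60 TPM, and the log2 change of -0.16 (adjusted p = 0.46, limma) did not pass. Heart (0.22), muscle (-0.14) and cerebellum (-0.31) did not pass either, with adjusted p from 0.281 to 0.827 (limma).

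Orm1 and Orm2 encode orosomucoids, lipocalins that bind drugs and dampen inflammation. Liver Orm1 had 1009, 1369 and 1799 TPM as lowest, median and highest in normoxia and 53.1, 1220.1 and 2191 TPM after IH, with a log2 change of -0.06 (SE 0.200, adjusted p = 0.853, limma). Orm2 was much scarcer there, with 8.21, 14.7 and 88.6 TPM in normoxia and 0.880, 11.0 and 44.6 TPM after IH, and its change of -0.42 did not pass (adjusted p = 0.201, limma). In the lung Orm2 was under the filter on low values, yet its groups were the most separate of any member there. It ranged from 0.181 TPM (median 0.348) to 0.560 TPM in normoxia and from 0.476 TPM (median 0.870) to 3.72 TPM after IH, and 18 of 24 IH libraries lay above every normoxia library. With no filter on low values it was the second lung member that changed, as higher, where 2402 of 34148 lung genes were higher. Some other scarce lung genes separated as far. Slc12a3, at 0.230 TPM in normoxia and 0.989 TPM after IH, had 24 of 24 IH libraries above every normoxia library, while Umod had 2 of 24. The separation is thus not particular to Orm2. Orm1 did not pass in the lung (6.15 and 6.70 TPM, log2 change -0.23, adjusted p = 0.356, limma), kidney (0.22, adjusted p = 0.232, limma), muscle (0.15, adjusted p = 0.571, limma) or heart (4.14 and 7.00 TPM, 0.55, adjusted p = 0.0927, limma). Outside the liver Orm1 followed adipocyte markers, with r = 0.872 and rho = 0.905 in the lung, 0.797 and 0.772 in the kidney, 0.815 and 0.721 in muscle and 0.795 and 0.745 in the heart (permutation p = 1e-05 for each, the smallest possible, n = 48).

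Lcn2, the neutrophil and epithelial lipocalin that withholds iron from bacteria, was highest in the lung. There it ranged from 53.9 TPM (median 125) to 177 TPM in normoxia and from 38.7 TPM (median 107) to 539 TPM after IH. The log2 change of -0.55 (SE 0.173, adjusted p = 0.00413, limma) was under 1.5-fold. Without replicate 3 it was -0.88 and passed, on TPM as deposited it was -0.25 (adjusted p = 0.189, limma), and with genes detected per library as a covariate Lcn2 in the lung reversed to 0.62 (adjusted p = 0.00196, limma). In the heart Lcn2 had 1.84, 2.66 and 9.16 TPM in normoxia and 2.95, 4.15 and 7.66 TPM after IH, and the mean was higher at 8 of 8 time points. Its log2 change of 0.43 (SE 0.121, adjusted p = 0.00341, limma) was under 1.5-fold and was 0.26 without replicate 3 (adjusted p = 0.152, limma). In the liver Lcn2 was 3.48 and 4.43 TPM and higher at 7 of 8 time points (0.40, adjusted p = 0.151, limma), and in the kidney (0.03) and cerebellum (0.10) it did not pass.

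Muscle Lcn2 fell into 2 separate sets of libraries in both groups. In normoxia, 5 libraries had 23.7 to 52.5 TPM and the other 19 had 1.13 to 3.94 TPM. After IH, 6 libraries had 30.2 to 61.4 TPM and the other 18 had 1.12 to 3.34 TPM. In the 11 high libraries the 12 neutrophil markers summed to 668 to 1662 TPM, and in the other 37 to 4.57 to 94.9 TPM. A pooled correlation, 1 of the 320 relations computed, is not given because the libraries fall into these separate sets. The log2 change after IH was 0.27 over all muscle libraries (adjusted p = 0.805, limma) and 0.05 in the 37 (adjusted p = 0.84, limma).

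Whether the IH effect on a member differed between the liver and another tissue was tested directly, as an interaction over 22 pairs of member and tissue. For 5 of them the effect differed from that in the liver. The kidney had 2 of 5 tested members, Hp (difference 0.90, SE 0.205, adjusted p = 0.000356, limma) and Hpx (0.66, SE 0.213, adjusted p = 0.0124, limma), where 30.3% of all genes differed. The lung had 2 of 5, Hpx (0.90, SE 0.256, adjusted p = 0.00213, limma) and Lcn2 (-0.95, SE 0.272, adjusted p = 0.00225, limma), with 52.6% of all genes. Lung Hpx was tested only because its IH group lifted the mean over 1 TPM, so its difference is no separate support for a rise. The heart had 1 of 5, Hp (1.28, SE 0.405, adjusted p = 0.00939, limma), with 35.2%. Muscle had 0 of 4 and the cerebellum 0 of 3, with 22.1% and 22.3% of all genes. The 5 pairs share the liver libraries, and the fit took all libraries as independent, although several organs may come from the same mouse. With at most 2 members per tissue, the shares of members that differed cannot be told apart from those of all genes. Without replicate 2 only 2 of the 5 differed, and without the IH liver library of replicate 2 at 13:30 there were 6, with Hp in the lung added (-0.51, adjusted p = 0.0166, limma).

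A 24-hour rhythm was found for few members, and in the liver only in normoxia. Rhythm was tested as a cosine and sine term (limma, adjusted over all genes tested) in 48 pairs of member and tissue per treatment, for members with a maximum of at least 1 TPM, and times are clock hours as labelled. In normoxia 3 pairs were rhythmic, with 10 at an unadjusted p under 0.05, and after IH 2 were, with 4 unadjusted. The share of all genes at that unadjusted p is not given. Liver Fgb in normoxia averaged 1079, 1106, 997, 975, 793, 789, 792 and 894 TPM from 1:30 to 22:30, a fitted 1.45-fold swing with its peak at 4.28 h (adjusted p = 0.00685, limma). After IH the liver Fgb means were 741, 917, 671, 723, 358, 506, 659 and 704 TPM, and the test did not pass (adjusted p = 0.783, limma). Liver Apcs in normoxia was lowest at 16:30, at 44.8 ± 5.08 TPM (SD, n = 3 libraries), and highest at 7:30, at 83.0 ± 5.36 TPM, with a fitted 1.57-fold swing and its peak at 3.97 h. Its adjusted p was 0.0242 in normoxia and 0.91 after IH (limma), and by a rank test of rhythm the normoxia call of liver Apcs was lost (adjusted p = 0.0564), while the other 2 calls in normoxia and both after IH were kept. Members rhythmic in the liver in normoxia were thus 2 of 10, where 14.3% of all genes were, and after IH 0 of 10, where 2.23% were.

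In the kidney the same 2 genes were called, at very low levels. Kidney Fgb was rhythmic in normoxia (amplitude 0.22 on the log2 scale, peak at 21.4 h, adjusted p = 0.016, limma) and after IH (amplitude 0.28, peak at 22.8 h, adjusted p = 0.0198, limma), with means of 0.885 and 0.956 TPM. Both kidney Fgb calls were lost on linear TPM, on log2 TPM as deposited and with a filter at a mean of 1 TPM. Kidney Apcs was rhythmic after IH (amplitude 0.40, a 1.73-fold swing, peak at 5.12 h, adjusted p = 0.0035, limma) and at adjusted p = 0.0891 in normoxia. The kidney thus had 1 of 7 in normoxia and 2 of 7 after IH, where 18.5% and 5.21% of all genes were rhythmic. The lung had 0 of 8 in each treatment, with 6.48% and 3.37% of all genes, and the heart 0 of 7, with 0.552% and 3.4%. Muscle had 0 of 8 in each, with 5.27% and 7.4%, and the cerebellum 0 of 8, with 0% and 0.00944% (limma). Unadjusted, 4 of the cerebellum members in normoxia and 1 of the muscle members after IH passed, the latter being Hp, which was also called after IH with replicate number as a block (adjusted p = 0.0391, limma, where 9.9% of all genes then were). The cerebellum members were Orm1, Hp, Hpx and Fgb, with fitted peaks from 3.03 to 3.64 h. Heart muscle markers in these libraries summed to 2910 to 5632 TPM at 4:30 and to 511 to 571 TPM at 22:30. Their part was not tested, and the unadjusted share of all genes is not given. The calls depended on which replicates were in, with 0 to 3 in either treatment when 1 replicate number was left out, and without replicate 2 there was none.

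The loss of a call in 1 treatment is not a changed rhythm, and that change was tested itself. Among the 4 pairs of member and tissue rhythmic in at least 1 treatment, Fgb and Apcs in liver and kidney, 0 changed, with unadjusted p from 0.275 to 0.976 (limma). Of all genes rhythmic in at least 1 treatment, 0% changed in the liver and 0% in the kidney by this test.

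**Figure D4:**
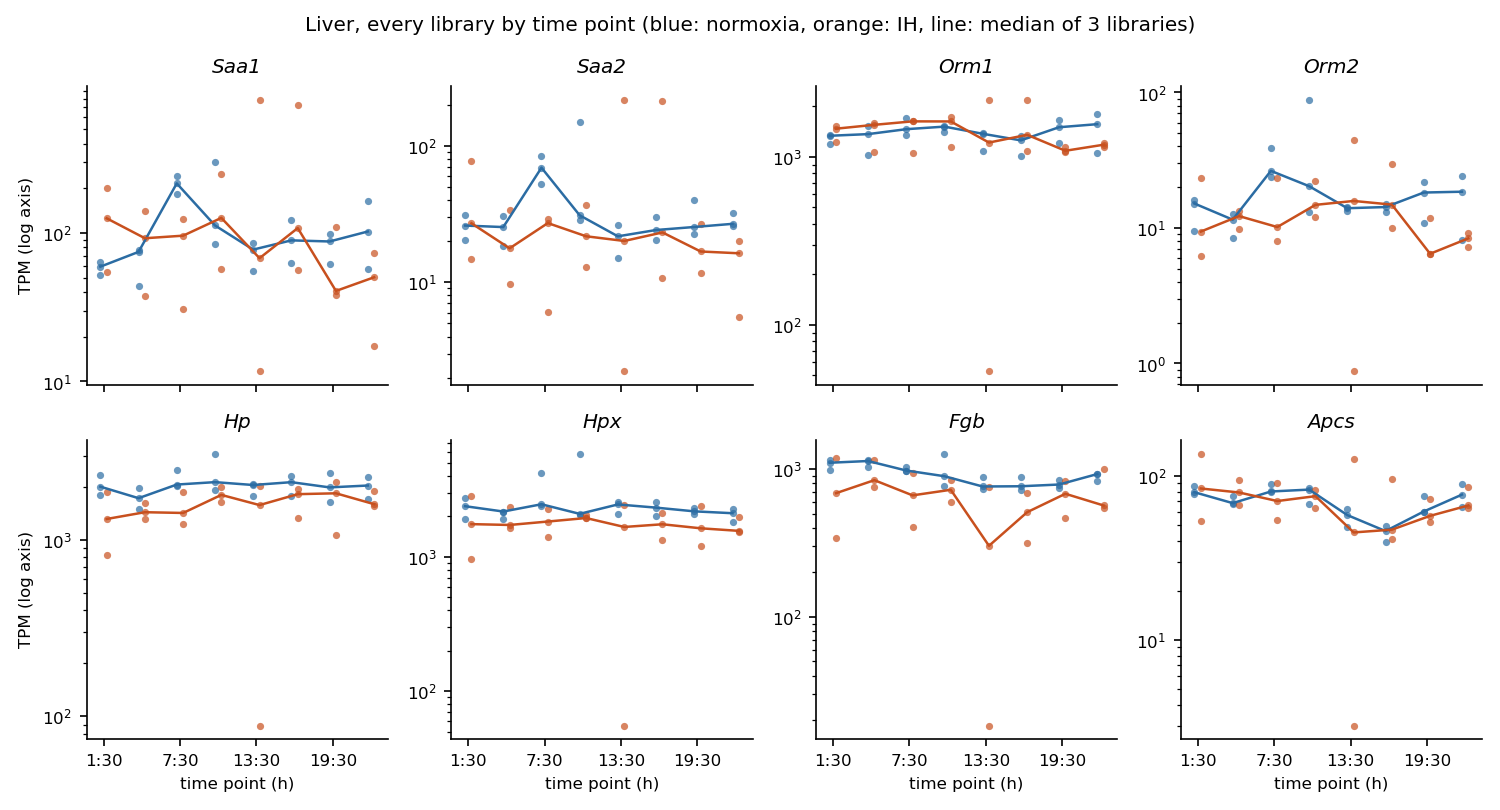
Liver TPM (log axis) of 8 members in every library by time point, normoxia in blue, IH in orange and lines through the median of 3 libraries. In normoxia Fgb and Apcs are highest in the early hours and lowest near 16:30, the 3 libraries of Saa1 at 7:30 lie above most others, and the low IH point at 13:30 is replicate 2.

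Within the liver the members varied together from library to library. After subtracting the treatment mean, 40 of 45 pairs of members had a positive Pearson r that passed the permutation test (adjusted over the 45, n = 48) and 32 a positive Spearman rho, with 0 negative for either. The share of all pairs of liver genes that would pass was not computed, so this count cannot be read as a trait of the members. The median r was 0.64 and the median rho 0.42. The median r was lower without the library that stood apart. Without this IH library of replicate 2 at 13:30 it was 0.47 and 5 pairs were negative, and without the 2 farthest libraries it was 0.44. It was 0.40 within normoxia, 0.68 within IH, and 0.73, 0.71 and 0.49 within replicates 1, 2 and 3. The hepatocyte marker sum followed Hp (r = 0.921), Hpx (0.909), Orm1 (0.881), Fgb (0.859) and Apcs (0.813) over the 48 libraries. Without the 2 farthest libraries these were 0.711, 0.430, 0.620, 0.423 and 0.415. Orm2 (0.575) and Lcn2 (0.225) followed the sum less, and Saa1, Saa2 and Saa3 were closest to macrophage markers. The part of cell content in these correlations was not tested.

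The most alike pair was Saa1 and Saa2, the paralogs whose promoters are printed above, with r = 0.943 and rho = 0.906 (permutation p = 1e-05 for both, the smallest possible, adjusted 2.81e-05 and 4.09e-05), r = 0.897 without the 2 farthest libraries, 0.821 in normoxia and 0.972 in IH. How far reads that fit both genes add to that likeness was not tested. Saa1 and Orm2 had r = 0.841 and rho = 0.813. Orm1 and Apcs had r = 0.913 (0.808 without the library that stood apart) and Hp and Hpx r = 0.898 (0.635 without it). Fgb and Saa3 did not vary together, with r = 0.069 over 48 libraries and -0.399 over 47.

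Over 7196 genes with a liver mean of at least 5 TPM, the genes most like each member by Pearson r were partly members themselves. For Fgb they were Fgg (r = 0.990) and Fga (r = 0.977), the other fibrinogen chains, and Pglyrp2, and without the library that stood apart Fgg and Fga still had 0.960 and 0.933. Saa1 was most like Saa2, Orm2 and Fkbp11, Saa2 like Saa1, Orm2 and Tff3, and Orm2 like Saa1, Saa2 and Rnase4. Apcs was most like Orm1, Prdx4 and Lyplal1, Hp like Acp5 (r = 0.950), Dap and Azgp1, and Saa3 like Erh, Rpl10a and Mea1. For Orm1 they were Lect2, Mgst1 and Apoc2 and for Hpx Ahsg, C8b and Cpb2, and all 6 were replaced when the library that stood apart was left out. Without it Apcs also lost Prdx4 and Lyplal1, Hp lost Dap, Saa3 lost Rpl10a and Mea1, Orm2 lost Rnase4 and Fgb lost Pglyrp2, and r of Hp with Acp5 was 0.848. Between tissues, libraries of the same time point, treatment and replicate number were compared in 22 pairs of liver and another tissue. Only Orm1 in heart and liver passed, with r = -0.33 (permutation p = 0.00208, adjusted 0.0458) and rho = -0.56 (permutation p = 0.00079, adjusted 0.0174), and r = -0.60 without the 2 farthest libraries, -0.53 in normoxia, -0.29 in IH and -0.22 with the mean of each replicate number removed.

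**Figure D5:**
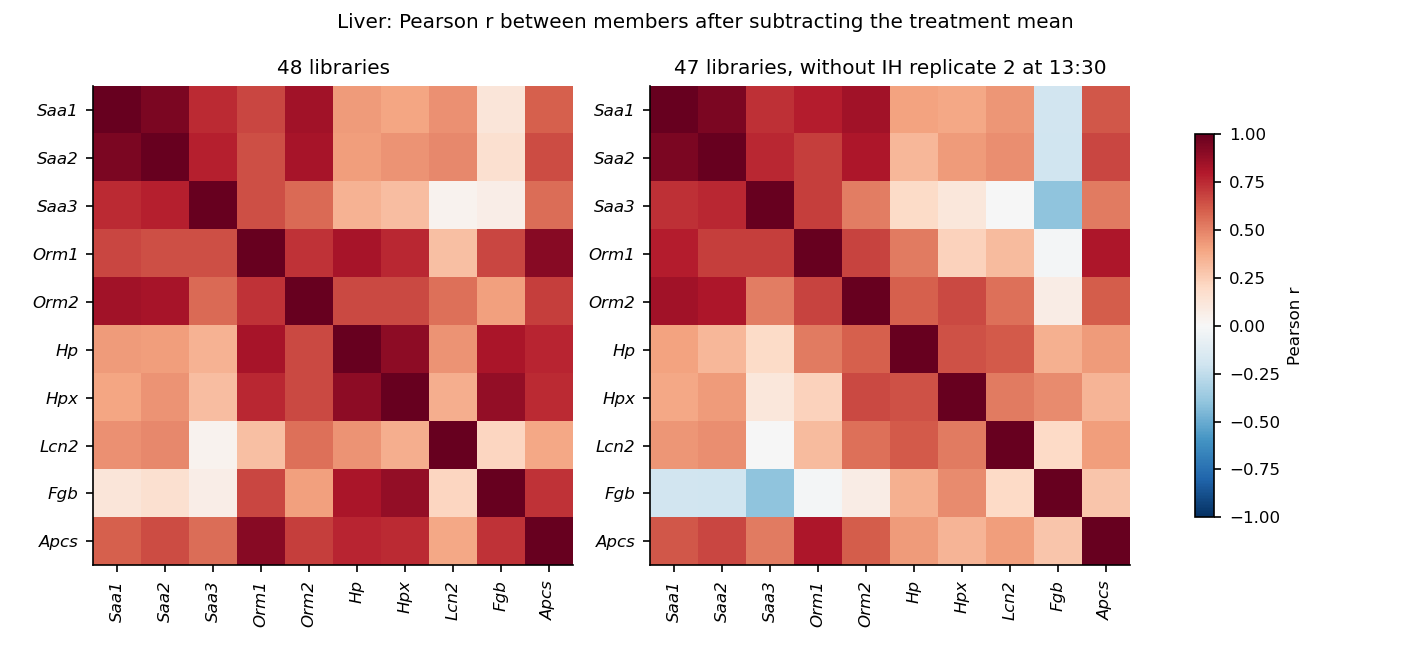
Pearson r between the 10 members in liver libraries after subtracting the treatment mean, on a colour scale from -1 to 1, over all 48 libraries and over 47 without the IH library of replicate 2 at 13:30. Saa1 and Saa2 stay dark red in both panels, while Fgb with Saa3 turns from near 0 to -0.399.

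The other genes of the acute phase were set beside the members from lists of pathway roles. In the liver, 12 of 27 genes listed as other positive acute-phase proteins were lower after IH and 0 higher, with a median log2 change of -0.55 against -0.01 over all genes, of which 289 of 11334 were lower. The list is broad, and whether each of its genes, Pzp among them, rises in an acute phase of the mouse was not tested. The largest falls were those of Pzp, the mouse alpha-macroglobulin (1165 and 479 TPM, -1.57, adjusted p = 1.82e-06, limma), the complement component C4b (293 and 149 TPM, -1.13) and the inhibitor heavy chain Itih4 (-1.04). Fgg, the partner chain of Fgb in fibrinogen, fell by 0.60 on the log2 scale (adjusted p = 0.0284, limma), while Fga was at -0.56 (adjusted p = 0.0508, limma). Proteins whose synthesis is known to drop in the acute phase were lower too, in 6 of 11 with a median of -0.64, among them the corticosteroid carrier Serpina6 (-0.86), transferrin Trf (-0.84) and albumin Alb (-0.74, from 31277 to 21072 TPM). Of the receptors that clear acute-phase proteins 2 of 8 were lower, Lrp1 (-1.13), which takes up haem-hemopexin, and Asgr2 (-0.65), a subunit of the asialoglycoprotein receptor. These liver counts fell to 6 of 27, 2 of 11 and 1 of 8 without the IH library of replicate 2 at 13:30. They fell to 1, 0 and 0 without replicate 1, and to 4, 0 and 0 without replicate 2. Within replicate 3 alone they were 0, with a median of 0.13 for the positive list. Calls over all liver genes, in either direction, fell as well. They went from 414 of 11334 to 341 of 11243 without that 13:30 library, 48 of 11438 without replicate 1 and 73 of 11315 without replicate 2. Within replicate 3 alone 1 of 11468 genes was called. Markers of other tissues moved with these list genes in the liver, with 8 of 11 tested heart muscle and 6 of 6 tested kidney genes higher. Of 12 neutrophil markers only S100a8 and S100a9 were tested, and both were higher. Those under the filter went both ways, with Elane at 0.140 TPM in normoxia and 0.0745 TPM after IH, and Retnlg at 0.317 and 0.479 TPM. The part of these markers was not tested.

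Upstream of the members in the liver, 0 of 3 ligands, 0 of 8 cytokine receptors and 0 of 16 signalling and transcription factors changed (limma). The 3 ligands tested were Il1a, Il1b and Cntf. Il6 (means of 0.0409 TPM in normoxia and 0.0295 TPM after IH) and Tnf (0.132 and 0.143 TPM) were under the filter and were not tested. With 3.65% of all liver genes changed, counts of 0 in lists this short cannot be told apart from the background. Stat3, the factor downstream of IL-6, was at -0.31 (adjusted p = 0.0522, limma), and Cebpb, the C/EBP factor of the acute phase, had 106 and 76.6 TPM at -0.42 (adjusted p = 0.0324, limma), under 1.5-fold. In all 6 pathway lists of the liver together, 36 of 73 tested genes had an unadjusted p under 0.05. So had 35 of 59 tested marker genes of the liver, and the share of all liver genes is not given.

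In the other tissues few list genes changed. In the lung, 3 of 17 other positive acute-phase proteins were lower, complement C3 (-0.80), the lipopolysaccharide receptor Cd14 (-0.66) and Lrg1 (-0.62), with a median of -0.42 against -0.08 over all genes, and on TPM as deposited 0 were lower and 2, Orm3 and Il1rn, were higher. Of all lung genes 677 of 15426 were lower, while on TPM as deposited 2908 of 15426 were higher, of 2966 called in either direction. Trf (-0.63) and Asgr1 (-0.69) were also lower there. Markers of several cell types moved with these lung genes, with 9 of 12 lung epithelium markers lower (median -0.63), and 4 of 11 heart muscle (median 0.37) and 4 of 10 skeletal muscle markers (median 0.70) higher. Summed, heart muscle markers ranged from 300.3 to 1170.0 TPM in normoxia lungs and from 453 to 1390.0 TPM after IH, and skeletal muscle markers from 23.3 to 612 TPM and from 35.6 to 1053 TPM. Their part was not tested. In the heart C3 (0.89), Serpina3n (0.69) and the shared IL-6 receptor subunit Il6st (0.64) were higher, and 0 of the positive list with genes detected as a covariate. In the kidney Lrp1 was higher (0.75). In muscle 0 of 52 and in the cerebellum 0 of 55 pathway genes changed (limma), with 7 and 9 at an unadjusted p under 0.05. The share of all genes at that unadjusted p is not given.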

How the data were processed

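Whole tissues of 288 libraries were sequenced, 24 per tissue and treatment. Per the methods, RNA was extracted with TRIzol, poly(A) libraries were made with a directional kit, and the authors quantified reads with Kallisto against Ensembl release 102. The authors deposited TPM for 35904 genes, with library totals from 989211 to 999188 TPM. The submitters' processing notes name mm10, FastQC 0.11.3, bcl2fastq and DESeq2, and the estimated counts behind the latter are not analysed here. The methods state a median of mapped reads per sample. The depth of each library is unknown, since TPM keeps none, and so is the precision of its TPM. Pseudo-alignment divides reads among near-identical transcripts by estimate, which can move TPM between Saa1 and Saa2 and among the Orm genes.

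Everything else was computed from TPM, with limma 3.58.1 in R 4.3.3, and Python 3.11.15 with numpy 2.4.6, scipy 1.17.1, pandas 2.3.3 and matplotlib 3.10.9. Libraries were scaled to each other by median ratios, and log2 was taken after adding a pseudocount of 0.5 TPM. Mean 24-hour expression was fitted on treatment alone with a trend in the prior, for genes whose tissue mean reached 1 TPM. A change needed both a 1.5-fold difference and a p of at most 0.05 after Benjamini-Hochberg adjustment. Rhythm was a cosine and sine of 24 hours per treatment, with a rank test as an alternative, and its change was tested among genes rhythmic in at least 1 treatment. Tissues, library correlations and marker sums were tested by 100000 permutations, 2-sided. Intervals are 1.96 standard errors. The scripts were tested on simulated data. Gene positions are from GENCODE mouse release 21 and promoters from RefSeq.

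All 10 members are named in every tissue, list genes where they changed (at most 3 per direction, the largest), and for members with a liver mean of at least 10 TPM the 3 genes most like them. Fga, Fgg, Stat3, Cebpb and further genes outside this rule were chosen after their values were seen. The members and lists were chosen with earlier results of these data known. Some alternatives, which leave out libraries with markers of other tissues, were chosen after seeing the data.

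Same-numbered libraries of normoxia and IH deviated together in muscle for 3 of 3 replicate numbers (correlation 0.155 to 0.65). In each of the other 5 tissues at least 1 of the 3 numbers did not. Only 2 of the 3 muscle numbers were most alike with their own number, and replicate 1 reached 0.671 with another number against 0.155 with its own. The liver also had 2 of 3 most alike with their own. The check therefore does not show that the numbers pair libraries in muscle or in any other tissue.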

Additional observations from a re-analysis of the deposited data

Results flagged for a closer look

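For 5 pairs of member and tissue the effect of IH differed from that in the liver. The test was an interaction term in a fit over both tissues (limma, adjusted over all genes tested). All 5 pairs share the liver libraries, and libraries were taken as independent, although several organs may come from the same mouse. Hpx, the haem carrier, had a log2 change of 0.42 in the lung and -0.48 in the liver, a difference of 0.90. Lcn2, the iron-trapping lipocalin, had -0.55 in the lung and 0.40 in the liver, a difference of -0.95. Hp, the haemoglobin scavenger, had 0.50 in the kidney and -0.40 in the liver, a difference of 0.90, and 0.88 in the heart, a difference of 1.28. Hpx in the kidney was at 0.18, a difference of 0.66. The lung Lcn2 difference was -0.54 on TPM as deposited (adjusted p = 0.0875, limma) and -0.83 without replicate 2 (adjusted p = 0.0591, limma). The kidney Hpx difference was 0.44 without replicate 2 (adjusted p = 0.0838, limma) and 0.60 without replicate 3 (adjusted p = 0.0946, limma), and the heart Hp difference 0.97 without replicate 1 (adjusted p = 0.247, limma) and 1.08 without replicate 2 (adjusted p = 0.0795, limma). The lung Hpx and kidney Hp differences kept their calls under these settings. Lung Hpx, at a mean of 0.925 TPM in normoxia, was tested only because of its higher IH group, so its difference is no separate support for a rise.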

How the results depend on the processing

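Of the counts of members called in each tissue, those in muscle and cerebellum were 0 under every alternative run. In the liver, with 1 member called, the count was 0 with no filter on low values, with array weights per library, within replicates 2 and 3 alone, without the 1:30, 13:30 or 16:30 time point and without the IH library of replicate 2 at 13:30, 2 on TPM as deposited and 0 to 2 when a replicate number was left out. In the lung, with 1 called, it was 2 with no filter, within replicates 1 and 2 alone and without the 1:30 time point, 0 with quantile normalization, with array weights and within replicate 3 alone, and 1 to 3 without a replicate number. The lung count stayed 1 on TPM as deposited and with genes detected as a covariate, but Hp was lost in both, and the member called was Hpx, higher, in the former and Lcn2, higher, in the latter. In the kidney, with 0 called, it was 1 within replicate 3 alone and 0 to 1 without a replicate number. In the heart, with 1 called, it was 0 with no filter, with quantile normalization, with genes detected as a covariate, within replicates 1 and 2 alone and without the 1:30, 10:30, 13:30, 16:30, 19:30 or 22:30 time point, 2 without 4:30 and with array weights, and 0 to 1 without a replicate number. It was 1 within replicate 3 alone, but there the member was Lcn2 and Hp was lost. Calls over all genes moved too. In the liver they were 48 of 11438 without replicate 1 and 1491 of 11211 without replicate 3. In the lung they were 3748 of 15476 within replicate 1 alone and 3441 of 15590 without replicate 3. In the heart they were 139 of 12779 with genes detected as a covariate. Kidney calls were 348 of 12808 within replicate 3 alone. With few members tested, shifts in their counts cannot be told apart from those of all genes. Rhythmic pairs numbered 0 to 3 in normoxia and 0 to 3 after IH without a replicate number, and on linear TPM, on log2 TPM as deposited and with a mean of at least 1 TPM they numbered 2 in normoxia and 1 after IH, with kidney Fgb lost in both treatments. By the rank test they numbered 2 in normoxia and 2 after IH. Pairs whose IH effect differed from the liver numbered 2 to 5 without a replicate number. The median correlation of liver pairs, 0.64, was 0.44 without the 2 farthest libraries, 0.40 within normoxia, 0.49 within replicate 3 alone and 0.47 without the IH library of replicate 2 at 13:30. The changes that reversed were those of Hp (0.088) and Lcn2 (0.62) in the lung with genes detected as a covariate and that of Fgb (0.042) in the liver within replicate 3 alone. The causes of these shifts were not tested. With a replicate block the counts of members called were the same in each tissue, with 1 in the liver, Fgb at -0.59 (adjusted p = 0.0184, limma), and after IH 3 pairs were rhythmic, with Hp in muscle added. In no tissue did the data show that the replicate number pairs libraries, so in this block it was only a number. With no counts, what the depth of each library limits could not be judged.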
